A study of Mus musculus with 16 samples.

Results

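The IL-6 family genes described here are the ligands *Il6*, *Lif*, *Il11*, *Cntf* and *Ctf1* and the receptor genes *Il6ra*, *Il6st*, *Lifr*, *Osmr* and *Cntfr*. They were chosen by symbol, and 8 of the 10 had a row among the 16707 genes of the deposited log2 CPM table (CPM is a read count scaled to library size). *Il6* and *Il11* had no row there, and their reads were taken from the transcript quantifications of the same libraries. RNA had been sequenced from mouse astrocytes in primary culture to ask how NLRX1, a mitochondrial member of the NOD-like receptor family, shapes their response to inflammatory signals. The cells came from the brains of pups, given as P6 in the labels and as younger in 1 passage of the study, either wild-type C57BL6J (WT) or *Nlrx1*-/-, without meninges, and were selected with beads against the astrocyte surface antigen ACSA-2. Each of the 4 litters per genotype gave a stimulated well and a vehicle well, each treated for 24 h. Stimulation was with lipopolysaccharide (LPS, a component of the bacterial outer membrane) at 500 ng/mL together with IFNγ at 10 ng/mL. The vehicle is given as water in the methods of the study and as phosphate-buffered saline in a figure legend. All cultures grew without serum and with heparin-binding EGF. There were thus 16 libraries in 4 conditions. The deletion is carried by every cell of the *Nlrx1*-/- pups from conception, the number and sex of the pups in a litter culture are not given in the sources used here, and genotype and litter cannot be told apart, since each litter has 1 genotype.

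Cytokines of the IL-6 family signal through gp130, the product of *Il6st*, in receptor complexes that differ between ligands. IL-6 and IL-11 first bind their own alpha receptors, LIF and cardiotrophin-1 use the LIF receptor, CNTF needs the CNTF receptor alpha chain besides the LIF receptor, and oncostatin M in mice acts mainly through OSMR. The activated complex signals through JAK kinases to STAT3, which in astrocytes is known for driving *Gfap* and other genes of the reactive state, and SOCS3 shuts the signal off.

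The 250 bases upstream of the annotated start are shown for *Il6*, the ligand that gives the family its name, and for *Lif*, *Il6ra* and *Osmr*, which had the largest rises of the tested family genes in *Nlrx1*-/-. The sequences are those of RefSeq on build GRCm38.p6, 5′ to 3′ on the strand of the gene. Capitals mark matches, on either strand, to short motifs of NF-κB (GGANTTTCC), C/EBP (TTNNGNAA), STAT factors (TTCNNNGAA) or AP-1 (TGANTCA), where N is any base.
Il6 (chr5:30012864-30013113, plus strand): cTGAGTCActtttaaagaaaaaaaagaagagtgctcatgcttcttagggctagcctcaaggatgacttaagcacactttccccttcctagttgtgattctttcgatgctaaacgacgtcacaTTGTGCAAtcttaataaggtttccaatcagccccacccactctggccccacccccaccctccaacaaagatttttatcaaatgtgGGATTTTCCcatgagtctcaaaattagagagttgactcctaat
Lif (chr11:4257318-4257567, plus strand): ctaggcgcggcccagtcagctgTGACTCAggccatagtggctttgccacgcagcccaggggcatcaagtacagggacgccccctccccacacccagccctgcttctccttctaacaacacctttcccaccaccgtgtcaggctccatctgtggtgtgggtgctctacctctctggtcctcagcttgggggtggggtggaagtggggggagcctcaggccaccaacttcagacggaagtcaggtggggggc
Il6ra (chr3:89913197-89913446, minus strand): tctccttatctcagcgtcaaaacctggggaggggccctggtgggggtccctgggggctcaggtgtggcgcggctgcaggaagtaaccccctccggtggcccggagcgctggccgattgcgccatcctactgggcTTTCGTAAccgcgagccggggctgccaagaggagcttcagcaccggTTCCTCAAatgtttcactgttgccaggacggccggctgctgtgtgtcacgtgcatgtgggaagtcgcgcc
Osmr (chr15:6874314-6874563, minus strand): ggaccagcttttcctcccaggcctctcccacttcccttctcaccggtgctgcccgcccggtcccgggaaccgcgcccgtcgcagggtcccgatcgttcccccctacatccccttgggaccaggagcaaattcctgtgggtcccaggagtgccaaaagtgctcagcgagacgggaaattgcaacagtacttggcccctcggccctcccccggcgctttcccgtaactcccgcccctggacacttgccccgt
The *Il6* sequence held an AP-1 match from 249 to 243 bases before the start, a C/EBP match from 128 to 121 and an NF-κB match from 43 to 35. The *Lif* sequence held an AP-1 match from 228 to 222 bases before the start, the *Il6ra* sequence held C/EBP matches from 116 to 109 and from 70 to 63, and the *Osmr* sequence held no match to these letters. None of these matches overlapped another. Among 32851 mouse promoters of this length, 1.1% held the NF-κB letters, 36.8% the C/EBP letters, 7.0% the STAT letters and 6.7% the AP-1 letters. Of the other family genes, *Il11* had an AP-1 match from 98 to 92 bases before 1 of its annotated starts, *Cntf* had one from 245 to 239, and *Ctf1*, *Il6st*, *Lifr* and *Cntfr* had no match.

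The libraries held between 27259420 and 43752903 assigned reads (median 35554625), and 16066 genes passed the filter on low counts. *Nlrx1* itself lay between 4.08 and 4.44 log2 CPM in the 8 WT libraries and between 1.09 and 2.96 in the 8 *Nlrx1*-/- libraries, so the genotypes did not overlap. In *Nlrx1*-/- vehicle it was at 2.24, 2.96, 1.84 and 2.85 in litters 1 to 4, highest in litters 2 and 4. Which part of the gene was removed is not given in the sources used here. All 10 genes of the astrocyte marker list were in the deposited table, with a summed level of 2692 to 6867 TPM (a level per transcript length) per library. Of the 14 microglia and macrophage markers, 11 were not in that table, and each of these 11 had a mean of at most 0.58 TPM in every condition. The summed level of the 14 was 31.4 to 67.8 TPM, most of it from the 3 genes in the table. Genes of the oligodendrocyte lineage were present, with 1192 to 2648 TPM over 9 genes, most of it *Olig1*. *Nlrx1*-/- litters 2 and 4 stood apart from the other litters for several genes described below, and their values are given there.

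The order of the family genes was set by TPM, which allows genes of different length to be compared. In WT vehicle, *Il6st* was the highest at 86.7 ± 11.1 TPM (SD, n = 4), and its lowest library (70.8) lay above every library of the other family genes in that condition. *Cntfr* followed at 25.3 ± 1.13 TPM, *Cntf* at 23.3 ± 7.44, *Osmr* at 19.9 ± 1.7 and *Lifr* at 19.6 ± 0.468 (SD, n = 4 each). *Cntfr* did not overlap *Osmr* or *Lifr*, whereas *Osmr* and *Lifr* overlapped each other and *Cntf* overlapped all 3. *Ctf1* (4.97 ± 1.68 TPM) and *Il6ra* (3.96 ± 1.47 TPM) formed a lower tier and overlapped each other. *Lif* was at 0.556 ± 0.256 TPM, *Il6* at 0.133 ± 0.159 and *Il11* at 0.130 ± 0.073 (SD, n = 4 each). Vehicle-treated astrocytes of this culture thus carried RNA for the shared signalling chain and for the LIF, OSM and CNTF receptor chains at levels above those of the IL-6 receptor alpha chain and of *Lif*, *Il6* and *Il11*.

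**Figure D1:**
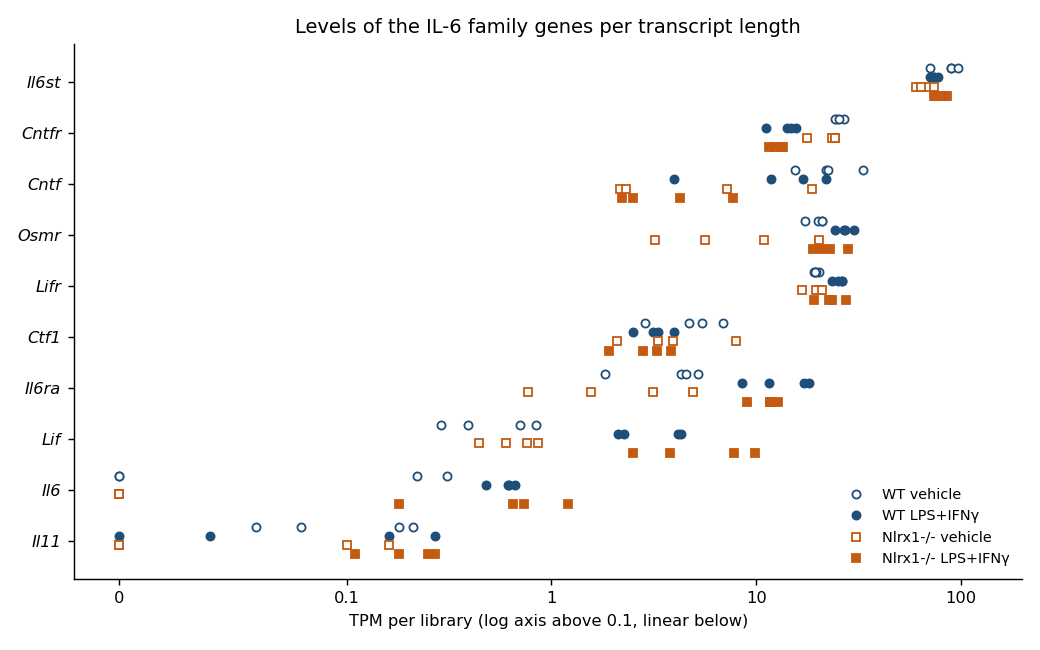
TPM of each family gene in each library (horizontal axis, logarithmic above 0.1 and linear below), with WT as blue circles, *Nlrx1*-/- as orange squares, open symbols for vehicle and filled symbols for LPS+IFNγ, and genes ordered by their mean in WT vehicle. *Il6st* is the highest gene in every condition, and *Il6* and *Il11* do not exceed 1.21 TPM in any of the 16 libraries.

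After LPS+IFNγ the order changed below *Il6st*. In WT, *Osmr* was at 27.1 ± 2.45 TPM and *Lifr* at 25.2 ± 1.40 (SD, n = 4 each), and both lay above *Cntfr* (13.9 ± 1.97), *Il6ra* (13.9 ± 4.60) and *Cntf* (13.7 ± 7.69) without overlap. *Lif* reached 3.20 ± 1.17 TPM, the level of *Ctf1* (3.24 ± 0.614). Among stimulated *Nlrx1*-/- libraries, *Lifr* (23.3 ± 3.39 TPM) and *Osmr* (22.8 ± 4.00) again followed *Il6st* (79.3 ± 5.81), and *Lif* (6.00 ± 3.45) had a higher mean than *Cntf* (4.16 ± 2.51) with overlapping libraries. In *Nlrx1*-/- vehicle, *Osmr* ranged from 3.22 to 20.3 TPM and *Cntf* from 2.17 to 18.6 TPM. TPM divides a fixed total among all genes, so changes between conditions are given below from log2 CPM and from the count model.

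The response of each litter to LPS+IFNγ was measured as the difference between its stimulated and its vehicle well, and it was tested with litters as blocks. In WT astrocytes 3 of the 8 family genes rose (*Lif*, *Il6ra*, *Lifr*) and 1 fell (*Cntfr*). Of all 16066 genes tested, 23.7% rose and 20.2% fell in WT. In *Nlrx1*-/- astrocytes 5 of the 8 rose (*Lif*, *Il6ra*, *Osmr*, *Il6st*, *Lifr*) and 1 fell (*Cntfr*), against 25.3% and 24.2% of all genes. The members' shares rest on 8 genes, and the median log2 fold change over all genes was -0.02 in WT and -0.03 in *Nlrx1*-/-. These are bulk libraries, so fewer cells of a type and less RNA per cell cannot be told apart.

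**Figure D2:**
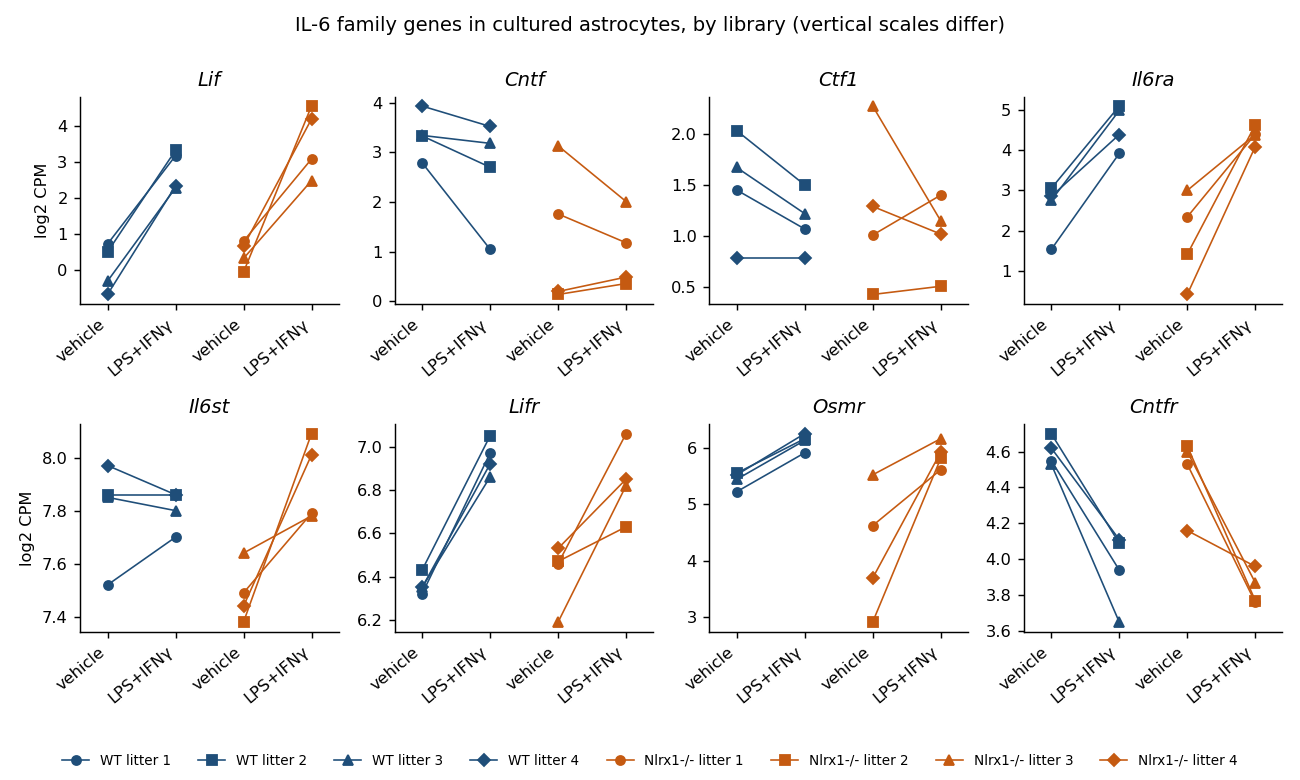
log2 CPM of the 8 family genes in each library (vertical axis, scale differs between panels), where a line joins the vehicle and the LPS+IFNγ well of a litter, blue for WT and orange for *Nlrx1*-/-, with a symbol per litter number. On every line the LPS+IFNγ well lies above the vehicle well for *Lif*, *Il6ra*, *Lifr* and *Osmr* and below it for *Cntfr*, while in *Nlrx1*-/- vehicle litters 2 and 4 lie low for *Osmr*, *Cntf* and *Il6ra*.

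Among the ligands that passed the filter on low counts, *Lif* had the largest response. LIF is a secreted cytokine that acts on neural precursors and glia. In WT vehicle its log2 CPM was 0.73, 0.51, -0.30 and -0.67 in litters 1 to 4, and after LPS+IFNγ it was 3.18, 3.33, 2.29 and 2.34. In *Nlrx1*-/- vehicle it was 0.81, -0.05, 0.33 and 0.67, and after LPS+IFNγ it was 3.09, 4.56, 2.49 and 4.20. Every stimulated library lay above every vehicle library, and *Nlrx1*-/- litters 2 and 4 had the highest stimulated values. By edgeR the log2 fold change was 2.76 in WT (SE 0.36, edgeR adjusted p = 0.000128), a 6.78-fold rise. It was 3.17 in *Nlrx1*-/- (SE 0.36, edgeR adjusted p = 3.98e-05), an 8.99-fold rise. The reads behind these values were 21 to 51 per library in WT vehicle and 205 to 655 in stimulated *Nlrx1*-/-.

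*Il6* was close to the limit of detection in every condition. WT vehicle libraries held 0, 2, 5 and 0 reads of *Il6* (litters 1 to 4) and WT LPS+IFNγ libraries 5, 8, 7 and 9. *Nlrx1*-/- vehicle libraries held 0 reads in all 4 litters and *Nlrx1*-/- LPS+IFNγ libraries 15, 2, 9 and 9. Reads were thus more numerous in the stimulated well of 4 of 4 litters in both genotypes. Per assigned read, the pooled level was 4.21-fold higher with LPS+IFNγ in WT (29 against 7 reads) and at least 12-fold higher in *Nlrx1*-/- (35 reads against a floor of 3 reads over the 4 vehicle libraries). These are ratios of pooled reads without an error range, and they do not cover the spread between litters. The floor bounds the vehicle count only and takes the 35 stimulated reads as exact. The gene did not pass the filter on low counts, and in the unfiltered fit of 24219 genes the edgeR adjusted p of its response was 0.204 in WT and 0.0185 in *Nlrx1*-/-. With at most 1.21 TPM in any library, *Il6* remained below each of the family's receptor genes in the same library. *Il6* lies within an annotated noncoding gene, *Gm42450*, on the opposite strand, and the libraries hold no strand information.

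*Il11* had 13 reads over the 4 WT vehicle libraries and 13 over the 4 WT LPS+IFNγ libraries, and 8 and 28 reads in *Nlrx1*-/-. Neither response passed the test in the unfiltered fit (edgeR adjusted p = 0.945 in WT and 0.285 in *Nlrx1*-/-). Per assigned read, the pooled level with LPS+IFNγ was 1.02-fold that of vehicle in WT, where 2 of 4 litters had more reads in the stimulated well, and 3.61-fold in *Nlrx1*-/-, where 4 of 4 litters did.

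*Cntf*, a ligand known from astrocytes and Schwann cells that lacks a secretion signal, varied widely between litters, above all in *Nlrx1*-/-. Its log2 CPM in WT vehicle was 2.79, 3.33, 3.34 and 3.93 in litters 1 to 4, and 1.05, 2.70, 3.18 and 3.52 after LPS+IFNγ. Its *Nlrx1*-/- vehicle values were 1.76, 0.14, 3.13 and 0.20, and those after LPS+IFNγ were 1.18, 0.36, 2.01 and 0.49. The stimulated well was lower in 4 of 4 WT litters and in 2 of 4 *Nlrx1*-/- litters, and vehicle and stimulated libraries overlapped in both genotypes. The log2 fold change was -0.71 in WT (SE 0.27, edgeR adjusted p = 0.0562) and -0.41 in *Nlrx1*-/- (SE 0.30, edgeR adjusted p = 0.292). The WT value lay close to the threshold, and the choice of model moved it across (DESeq2 adjusted p = 0.0228). Without *Nlrx1*-/- litter 3 or 4 its edgeR adjusted p was 0.0386 and 0.0465. *Cntf* shares its position with a further annotated coding gene, *Gm44505*, on the same strand, so reads of the shared part may be split between them.

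*Ctf1*, which encodes cardiotrophin-1, did not pass the test in either genotype. Its litter responses in log2 CPM lay between -0.53 and 0.00 in WT and between -1.12 and 0.38 in *Nlrx1*-/-. By edgeR the log2 fold change was -0.36 in WT (SE 0.26, edgeR adjusted p = 0.281) and -0.27 in *Nlrx1*-/- (SE 0.26, edgeR adjusted p = 0.429). The gene overlaps *Ctf2* on the opposite strand, and the libraries hold no strand information.

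Among the receptors, *Il6ra*, the chain that binds IL-6 itself, rose most. In WT vehicle it was at 1.53, 3.05, 2.75 and 2.85 log2 CPM in litters 1 to 4, and after LPS+IFNγ at 3.92, 5.10, 4.99 and 4.39. In *Nlrx1*-/- it was at 2.34, 1.41, 3.0 and 0.41 in vehicle and at 4.40, 4.63, 4.39 and 4.09 after LPS+IFNγ. All stimulated libraries lay above all vehicle libraries, and the *Nlrx1*-/- litters, spread from 0.41 to 3.0 in vehicle, lay between 4.09 and 4.63 once stimulated. The log2 fold change was 2.05 in WT (SE 0.31, edgeR adjusted p = 0.000344) and 2.52 in *Nlrx1*-/- (SE 0.32, edgeR adjusted p = 9.59e-05), which is 4.13-fold and 5.72-fold. The gene had 89 to 312 reads per WT vehicle library.

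*Il6st* (gp130), the shared signal chain, had the highest level and a small response. In WT it was at 7.52, 7.86, 7.85 and 7.97 log2 CPM in vehicle and at 7.70, 7.86, 7.80 and 7.86 after LPS+IFNγ. Its *Nlrx1*-/- values were 7.49, 7.38, 7.64 and 7.44 in vehicle and 7.79, 8.09, 7.78 and 8.01 after LPS+IFNγ. The WT groups overlapped, and the *Nlrx1*-/- groups did not. By edgeR the log2 fold change was -0.01 in WT (SE 0.08, edgeR adjusted p = 0.928) and 0.42 in *Nlrx1*-/- (SE 0.08, edgeR adjusted p = 0.00192), a 1.34-fold rise.

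*Lifr*, the receptor chain for LIF, CNTF and cardiotrophin-1, rose in both genotypes with little spread in WT. Its litter responses were 0.65, 0.62, 0.50 and 0.57 log2 units in WT and 0.60, 0.17, 0.63 and 0.33 in *Nlrx1*-/-. The values of *Nlrx1*-/- litters 2 and 4 were the lowest of the 8. The log2 fold change was 0.57 in WT (SE 0.08, edgeR adjusted p = 0.000138) and 0.42 in *Nlrx1*-/- (SE 0.07, edgeR adjusted p = 0.000986).

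*Osmr*, the oncostatin M receptor chain, varied little between WT litters and widely between *Nlrx1*-/- litters. In WT it was at 5.22, 5.55, 5.44 and 5.52 log2 CPM in vehicle and at 5.91, 6.16, 6.13 and 6.25 after LPS+IFNγ. In *Nlrx1*-/- it was at 4.62, 2.91, 5.52 and 3.69 in vehicle and at 5.61, 5.81, 6.16 and 5.92 after LPS+IFNγ. The vehicle values of *Nlrx1*-/- litters 2 and 4 were the lowest of the 16, whereas litter 3 lay within the WT range and all stimulated libraries lay close together. The litter responses were 0.68, 0.61, 0.68 and 0.73 log2 units in WT and 0.99, 2.91, 0.64 and 2.23 in *Nlrx1*-/-.

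The log2 fold change of *Osmr* was 1.62 in *Nlrx1*-/- (SE 0.30, edgeR adjusted p = 0.00111), a 3.07-fold rise. In WT it was 0.66 (SE 0.28, edgeR adjusted p = 0.0788), so it did not pass the threshold although the stimulated well was higher in 4 of 4 litters. The model shares 1 estimate of the spread between both genotypes. It passed with limma-voom (limma-voom adjusted p = 0.033) and in edgeR without the filter on low counts (edgeR adjusted p = 0.0455), but not with DESeq2 (DESeq2 adjusted p = 0.138). In a fit of the 8 WT libraries alone, an alternative chosen after the data were seen, the WT log2 fold change was the same 0.66 with an edgeR adjusted p of 1.42e-05, and *Cntf* then passed as well (adjusted p = 0.0295). Without *Nlrx1*-/- litter 2 or 3 the WT response of *Osmr* had an edgeR adjusted p of 0.0201 and 0.0324.

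**Figure D3:**
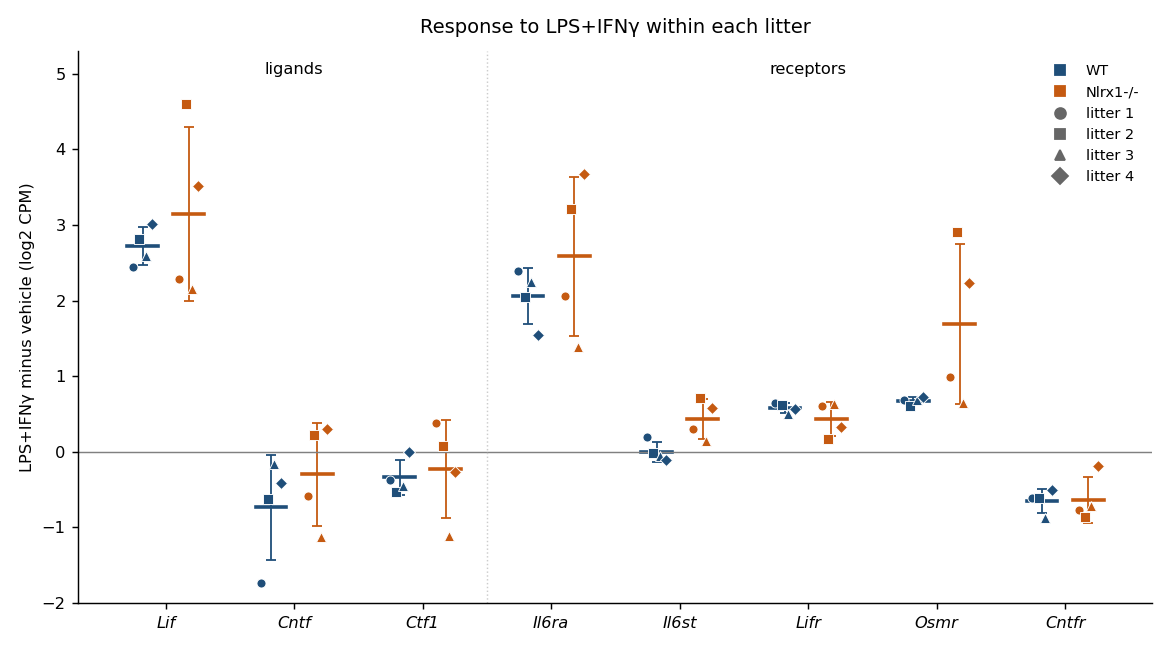
Difference in log2 CPM between the LPS+IFNγ and the vehicle well of each litter (symbols, by litter number) for WT (blue) and *Nlrx1*-/- (orange), with the mean as a thick bar and the SD over 4 litters as error bars. The WT litters lie within 0.61 to 0.73 for *Osmr*, where the *Nlrx1*-/- litters span 0.64 to 2.91, and the ranges of the genotypes overlap for all 8 genes.

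*Cntfr*, the CNTF-binding alpha chain, was the family member that fell. In WT it was at 4.55, 4.70, 4.53 and 4.62 log2 CPM in vehicle and at 3.94, 4.09, 3.65 and 4.11 after LPS+IFNγ. Its *Nlrx1*-/- values were 4.53, 4.63, 4.60 and 4.16 in vehicle and 3.76, 3.77, 3.87 and 3.96 after LPS+IFNγ. The groups did not overlap in either genotype. By edgeR the log2 fold change was -0.66 in WT (SE 0.11, edgeR adjusted p = 0.000761) and -0.65 in *Nlrx1*-/- (SE 0.11, edgeR adjusted p = 0.000709), which is 0.632-fold and 0.636-fold. The leading of its 11 RefSeq transcripts made up 66.5 ± 9.6% of the gene's TPM in WT vehicle and 47.1 ± 10.3% after LPS+IFNγ, and 74.5 ± 18.1% and 48.5 ± 6.6% in *Nlrx1*-/- (SD, n = 4 each). These shares are Salmon estimates over overlapping transcripts and were not tested. For *Osmr* and *Lifr* the leading transcript held between 87.0% and 99.5% of the TPM in every condition on average, and *Il6st* and *Cntf* had 1 quantified transcript each.

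Whether the genotypes responded differently was tested by the interaction, the *Nlrx1*-/- response minus the WT response. No family gene passed the threshold, and neither did any of the 16066 genes in edgeR (0% called, with 2469 at an unadjusted p under 0.05). Of the 8 family genes, 2 had an unadjusted p under 0.05. They were *Il6st* (difference 0.43, SE 0.12, edgeR adjusted p = 0.223) and *Osmr* (difference 0.96, SE 0.40, edgeR adjusted p = 0.298). DESeq2, which called 310 genes, called *Il6st* (adjusted p = 0.0333), and limma-voom called 0 genes. DESeq2 gave no adjusted p for *Lif*, *Cntf* and *Ctf1*. *Il6st* also passed in edgeR without *Nlrx1*-/- litter 3 (difference 0.51, adjusted p = 0.0484). The difference in *Osmr* was 0.58 without *Nlrx1*-/- litter 2 (edgeR adjusted p = 0.473) and 1.32 without litter 3 (edgeR adjusted p = 0.0732). The response of *Lif* differed by 0.41 (SE 0.49, edgeR adjusted p = 0.738) and that of *Il6ra* by 0.47 (SE 0.43, edgeR adjusted p = 0.643), the latter ranging from 0.13 without *Nlrx1*-/- litter 4 to 0.89 without litter 3. *Lifr* differed by -0.16 (SE 0.11, edgeR adjusted p = 0.503), and *Cntfr*, with 0.01 (SE 0.16, edgeR adjusted p = 0.990), had the smallest difference.

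In vehicle, the levels of the genotypes were compared over litters. No family gene passed the threshold, as for all genes in edgeR (0% called, with 3152 at an unadjusted p under 0.05). The deleted gene *Nlrx1* did not pass here either (log2 fold change -1.7, SE 0.24, edgeR adjusted p = 0.0538). A missing call in this comparison thus does not show equal levels. Of the 8 family genes, *Cntf*, *Osmr* and *Il6st* had an unadjusted p under 0.05, all 3 lower in *Nlrx1*-/-. Relative to WT, the log2 fold change was -1.59 for *Cntf* (SE 0.62, edgeR adjusted p = 0.190), -0.95 for *Osmr* (SE 0.36, adjusted p = 0.178) and -0.33 for *Il6st* (SE 0.10, adjusted p = 0.124). All 3 passed in edgeR when *Nlrx1*-/- litter 3 was left out, with -2.54 for *Cntf* (adjusted p = 0.0195), -1.54 for *Osmr* (adjusted p = 0.0116) and -0.38 for *Il6st* (adjusted p = 0.0386). The share of all genes that passed in that fit is not given here, so these calls are not a result particular to the family. The difference in *Osmr* was -0.66 without *Nlrx1*-/- litter 2 (edgeR adjusted p = 0.458). Without WT litter 1, *Il6st* alone passed (-0.42, edgeR adjusted p = 0.0469). DESeq2 called *Il6st* (adjusted p = 0.0372) among 781 genes, and limma-voom called 0 of the 8 and 1 gene in all.

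The astrocyte marker *Gfap* was low in the same vehicle libraries as *Osmr* and *Cntf*. In *Nlrx1*-/- vehicle *Gfap* was at 569, 124, 1080 and 249 TPM in litters 1 to 4, *Osmr* at 10.9, 3.22, 20.3 and 5.64 TPM, and *Cntf* at 7.21, 2.17, 18.6 and 2.30 TPM. Litter 3 was the highest and litter 2 the lowest for all 3 genes. In WT vehicle *Gfap* ranged from 675 to 2062 TPM, with litter 1 the lowest for all 3 genes. The summed level of the 10 astrocyte markers was 4185, 2980, 4999 and 3435 TPM in the *Nlrx1*-/- vehicle litters and 4227 to 6867 TPM in WT vehicle. These markers did not move together. In WT and *Nlrx1*-/- vehicle, mean *Aldh1l1* was 505 and 543 TPM and mean *Slc1a3* 1181 and 1177 TPM. The other astrocyte markers had lower means in *Nlrx1*-/- vehicle, among them *Aqp4* (508 and 284 TPM) and *Gja1* (534 and 275 TPM). The ependymal, fibroblast and endothelial lists followed the order of *Gfap*, *Osmr* and *Cntf* across the *Nlrx1*-/- vehicle litters, at levels below the astrocyte sum. In litters 1 to 4 the ependymal list was at 124.5, 79.3, 161.2 and 116.7 TPM, the fibroblast and meningeal list at 29.9, 20.7, 71.8 and 26.8 TPM, and the endothelial and pericyte list at 3.0, 1.5, 6.5 and 2.5 TPM. The oligodendrocyte lineage list had the reverse order and was at 2391, 2648, 2138 and 2493 TPM, against 1965 to 2409 TPM in WT vehicle. Neither order held for the neuron list (344.8, 369.3, 323.9 and 371.5 TPM), where litter 3 was the lowest. It also did not hold for the microglia and macrophage list (54.5, 49.4, 50.4 and 60.7 TPM), where litter 4 was the highest. The part of these markers in the results for *Osmr* and *Cntf* was not tested.

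**Figure D4:**
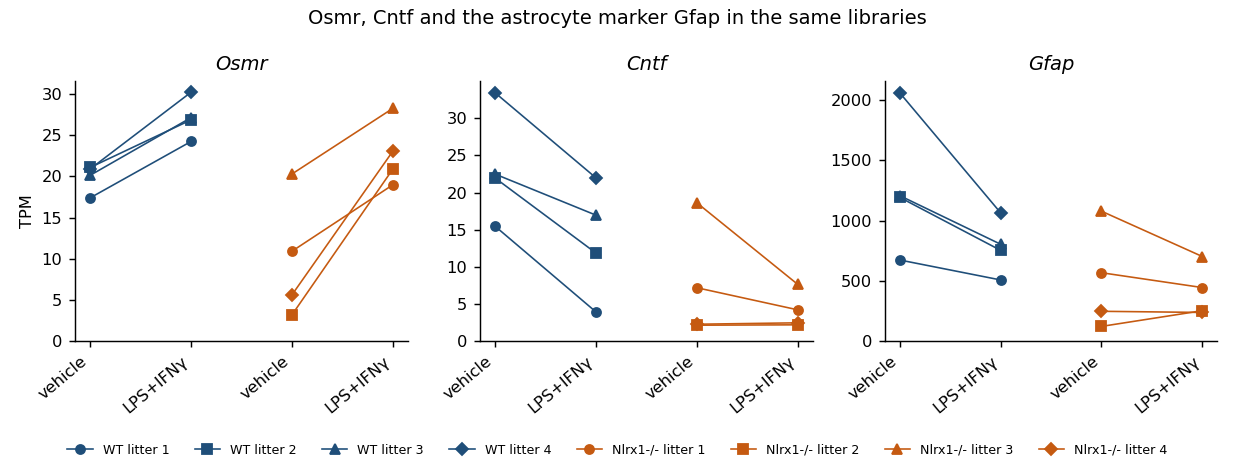
TPM (vertical axes from 0, scales differ) of *Osmr*, *Cntf* and *Gfap* in each library, with a line joining the vehicle and the LPS+IFNγ well of a litter, blue for WT and orange for *Nlrx1*-/-. *Nlrx1*-/- litters 2 and 4 are low for all 3 genes in vehicle, and after LPS+IFNγ they stay low for *Cntf* and *Gfap* but reach 20.9 and 23.1 TPM for *Osmr*.

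With LPS+IFNγ, 0 of the 8 family genes passed between the genotypes, against 5.03% of all genes. *Cntf* (log2 fold change -1.73, SE 0.64, edgeR adjusted p = 0.0968) and *Lif* (0.93, SE 0.41, edgeR adjusted p = 0.152) had an unadjusted p under 0.05. DESeq2 and limma-voom called none of the 8 either, among 2502 and 387 genes called. Leaving out *Nlrx1*-/- litter 3 brought *Cntf* (-2.20, edgeR adjusted p = 0.0148) and *Lif* (1.20, edgeR adjusted p = 0.0413) past the threshold, and without *Nlrx1*-/- litter 2 the difference in *Lif* was 0.56 (edgeR adjusted p = 0.456). How many of all genes passed without litter 3 is not given here. *Osmr*, which differed by -0.95 in vehicle, differed by -0.24 after LPS+IFNγ (SE 0.35, edgeR adjusted p = 0.693), and *Il6st* by 0.11 (SE 0.10, edgeR adjusted p = 0.473).

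The genes whose profile over the 16 libraries was nearest to a member were found by the root mean square difference of log2 CPM, each gene centred on its own mean, among 12516 genes. For *Lif* they were *Nmi*, an interferon-induced STAT interactor (0.45 log2 units), *Trex1*, a DNA exonuclease (0.48), and *Shisa3* (0.48). For *Osmr* they were *Hspb8*, a small heat shock protein (0.25 log2 units), *Ly6h* (0.27) and *Gjb2*, which encodes connexin 26 (0.36). Mean *Hspb8* in WT went from 5.61 to 6.45 log2 CPM with LPS+IFNγ and in *Nlrx1*-/- from 4.19 to 6.04, where mean *Osmr* went from 5.43 to 6.11 and from 4.19 to 5.88 (n = 4 litters each).

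Of 11 further genes of the family, 4 passed the filter. *Clcf1*, a second ligand of the CNTF receptor, rose by 1.29 in WT (SE 0.34, edgeR adjusted p = 0.0101) and by 2.21 in *Nlrx1*-/- (SE 0.36, edgeR adjusted p = 0.000488) on the log2 scale. *Il11ra1*, the IL-11 receptor alpha chain, rose in WT (0.37, SE 0.06, edgeR adjusted p = 0.000815). *Osm*, the ligand of OSMR, was among the 7 that did not pass the filter, with *Ctf2*, *Il27*, *Ebi3*, *Il31*, *Il11ra2* and *Il31ra*.

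Of 18 tested genes that carry the signal from gp130, 8 rose and 3 fell in WT and 10 rose and 4 fell in *Nlrx1*-/-, with a median log2 fold change of 0.14 and 0.20. Of all genes, 23.7% rose and 20.2% fell in WT and 25.3% rose and 24.2% fell in *Nlrx1*-/-. *Stat3*, the main effector of the family, rose by 1.1 in both (SE 0.06 each, edgeR adjusted p = 2.85e-07 and 2.81e-07). *Stat5b* rose by 1.03 and 0.92 and *Jak2* by 0.81 and 0.94 (log2, WT and *Nlrx1*-/-). Between the stimulated genotypes 1 of the 18 passed, a share close to the 5.03% of all genes. It was *Gab1*, an adaptor of the MAPK branch, at -0.49 (SE 0.11, edgeR adjusted p = 0.0396), which is named after its value was seen.

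Among 16 genes that restrain gp130 signalling or shed its receptors, 5 rose and 2 fell in WT, and 7 rose and 1 fell in *Nlrx1*-/-. The shares over all genes were 23.7% and 20.2% in WT and 25.3% and 24.2% in *Nlrx1*-/-. The medians were 0.15 and 0.29. *Socs1*, an inhibitor of JAK kinases that IFNγ is also known to induce, rose by 6.22 in WT and 6.27 in *Nlrx1*-/- (log2, SE 0.19 each). *Rhbdf2*, which supports the maturation of the sheddase ADAM17, rose by 4.34 and 4.11 (log2, SE 0.24 and 0.23). *Socs3*, the feedback inhibitor that binds gp130, rose by 0.47 in WT (SE 0.15, edgeR adjusted p = 0.0266) and by 1.18 in *Nlrx1*-/- (SE 0.15, edgeR adjusted p = 0.000109). The difference between these responses, 0.71 (SE 0.21), did not pass (edgeR adjusted p = 0.223). *Socs2* fell in WT (-1.09, SE 0.29, edgeR adjusted p = 0.0112), and *Cish* rose in *Nlrx1*-/- (0.88, SE 0.24, edgeR adjusted p = 0.00995). Between the stimulated genotypes 1 of the 16 passed, again close to the 5.03% of all genes. It was the phosphatase gene *Ptpn1* at 0.30 (SE 0.08, edgeR adjusted p = 0.0456), also named after its value was seen.

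Of 29 tested genes that STAT3 is known to drive in other settings, 17 rose and 3 fell in WT and 20 rose and 2 fell in *Nlrx1*-/-, with medians of 0.65 and 1.14. The corresponding shares of all genes were 23.7% and 20.2% in WT, and 25.3% and 24.2% in *Nlrx1*-/-. *Lcn2*, which encodes lipocalin-2, rose by 9.38 and 12.32 (log2, WT and *Nlrx1*-/-), from vehicle means of -3.15 and -3.81 log2 CPM, where the size of a fold change depends on the prior count of the fit. *Bcl3*, an atypical IκB protein, rose by 4.22 and 7.36 from vehicle means of -1.98 and -3.63 log2 CPM, where the same limit holds, and *Icam1*, an adhesion molecule, by 5.25 and 5.35. *Fgl2* rose by 3.82 and 4.00, and *Steap4*, a metalloreductase, by 3.20 and 4.99. *Gfap*, the astrocyte gene on this list, had a log2 fold change of -0.44 in WT (SE 0.21, edgeR adjusted p = 0.113) and 0.16 in *Nlrx1*-/- (SE 0.21, edgeR adjusted p = 0.576). None of the 29 passed the interaction, whose median was 0.31 over the list and -0.02 over all genes. Between the stimulated genotypes 2 of the 29 passed, against 5.03% of all genes. They were *Steap4* at 1.28 (SE 0.30, edgeR adjusted p = 0.0396) and *Bmi1*, a Polycomb gene, at 0.29 (SE 0.08, edgeR adjusted p = 0.045), named after their values were seen. Many of these genes are also known targets of NF-κB or of interferon signalling.

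Of 21 genes that control *Il6* transcription or the stability of its mRNA, 14 rose and 4 fell in WT and 16 rose and 3 fell in *Nlrx1*-/-, with medians of 0.96 and 1.47. Over all genes 23.7% rose and 20.2% fell in WT, and 25.3% and 24.2% did so in *Nlrx1*-/-. *Irf1*, a transcription factor induced by IFNγ, rose by 5.80 and 5.59 (log2, WT and *Nlrx1*-/-). *Myd88*, the adaptor of the LPS receptor, rose by 2.54 and 2.80, *Nfkbiz*, a cofactor of NF-κB at the *Il6* promoter, by 2.50 and 2.77, and *Atf3* by 2.19 and 2.51. The list joins genes that raise and genes that lower *Il6* RNA, so its counts and medians have no single direction. The rises named here stood beside the 29 and 35 *Il6* reads counted over the 4 stimulated libraries of each genotype. The lists share *Socs3*, *Cebpb*, *Cebpd* and *Fos*, each of which is on 2 of them.

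**Figure D5:**
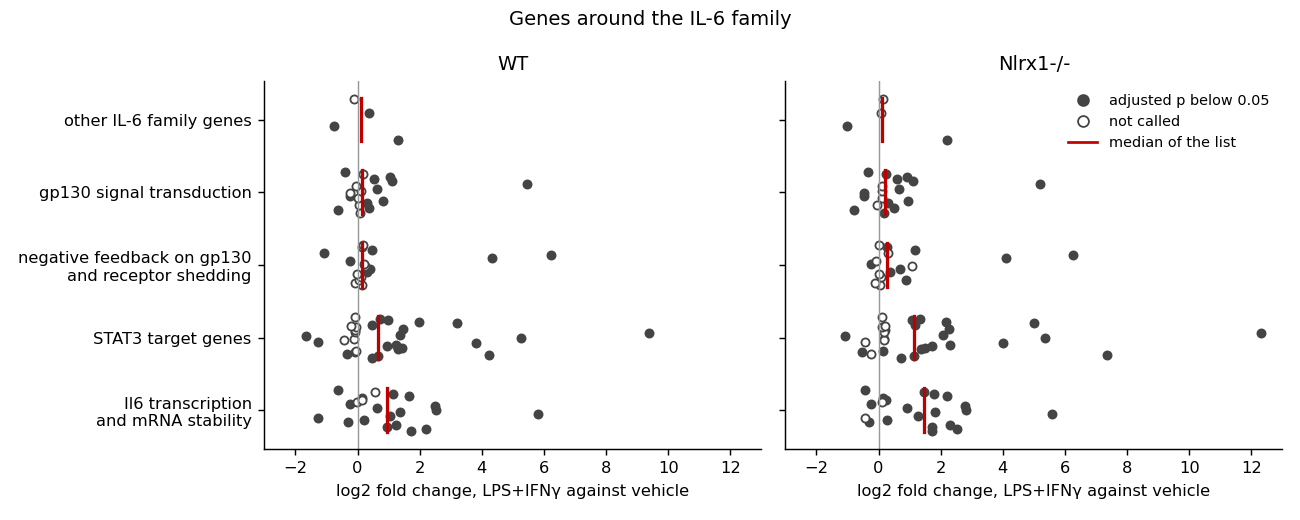
log2 fold change of LPS+IFNγ against vehicle (horizontal axis) for each tested gene of the 5 lists in WT (left) and *Nlrx1*-/- (right), filled where the edgeR adjusted p is below 0.05 and open otherwise, with the median of each list as a red line. The medians of the STAT3 target list (0.65 and 1.14) and of the *Il6* transcription list (0.96 and 1.47) lie to the right of those of the other 3 lists.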

How the data were processed

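The authors quantified poly-A RNA-seq libraries, made without strand information, with Salmon 1.7.0 on a GRCm39 transcriptome. Deposited per transcript are the expected count (estimated reads, not normalized) and TPM. The authors also deposited CPM and log2 CPM per gene, made with limma 3.58.1, whose CPM signal uses scaled library sizes. Expected counts were summed per gene by accession, which placed 96.7% to 97.3% of the reads, and rounded. Member counts came to between 92.1% and 106.9% of those behind the deposited CPM.

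edgeR 4.0.16 (quasi-likelihood, TMM, length offsets, minimum count of 10, Benjamini-Hochberg over 16066 genes, threshold 0.05) was run in R 4.3.3, with litters as blocks within genotype for responses and interaction and without litter terms between genotypes. The design text pairs the wells of a litter, and their deviations correlated across genes at r = 0.06 to 0.32. The edgeR fits were tested on simulated counts with 200 genes changed by 1 log2 unit. They recovered 72.5% of these in the WT response, 63.5% in the interaction and 59% in the vehicle comparison. False calls made up 2.78% (stimulated genotypes) to 8.63% (interaction) of the calls. The counts were drawn independently for each gene, so deviations that many genes of a library share were not simulated. The recovered shares therefore do not give the chance of a call in the real data, where the interaction and the vehicle comparison called 0% of genes. DESeq2 1.42.0 and limma-voom were alternatives, with other scalings, filters and omitted litters. Differences of log2 CPM in the text are from the deposited values, fold changes from edgeR. Depth sets precision through the reads given beside low genes.

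Members and lists were chosen with earlier results of these data known. Named from each list and response were up to 4 called genes with the largest change and a mean of at least 1 CPM, and some genes this rule names are not reported here. Nearest profiles were set for *Il6*, *Lif* and *Osmr*, but *Il6* has no row. Gene overlaps are from GENCODE M39 on GRCm39. Of the other marker lists, the neuron list summed to between 323.9 and 431.3 TPM per library, the ependymal list to between 48.2 and 223.1, the fibroblast list to between 13.7 and 71.8 and the endothelial list to between 1.5 and 8.6. Protein motifs were not searched.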

Additional observations from a re-analysis of the deposited data

How the results depend on the processing

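The 10 calls made for single family genes in the 2 responses kept their direction and their side of the threshold in all 180 alternatives run for them. In WT the count of family genes that fell was 2 in place of 1 with DESeq2, limma-voom, no low-count filter, recovered counts, limma on the deposited log2 CPM and the 8 WT libraries alone, the added one being *Cntf*, and it was 1 to 2 with a litter left out. The count that rose in WT was 4 in place of 3 with limma-voom, no low-count filter and the 8 WT libraries alone, the added one being *Osmr*, and 3 to 4 with a litter left out. The interaction called 1 higher gene with DESeq2 and 0 to 1 with a litter left out. The vehicle comparison called 1 lower gene with DESeq2 and 0 to 3 with a litter left out. Between the stimulated genotypes 0 to 1 higher and 0 to 1 lower genes were called with a litter left out. The shares of all genes called in the fits with a litter left out are not given here. The cause of these moves was not tested.

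Values that changed sign had not passed the threshold. They were the WT response of *Il6st* (0.00 with recovered counts and with limma on log2 CPM, -0.07 to 0.03 with a litter left out), the interactions of *Cntf* (-0.15 with limma-voom) and, with a litter left out, of *Lif* (-0.06 to 0.73), *Ctf1* (-0.12 to 0.40) and *Cntfr* (-0.13 to 0.08), and *Ctf1* in the *Nlrx1*-/- response (-0.48 to 0.04), in vehicle (-0.61 to 0.07) and after LPS+IFNγ (-0.26 to 0.02). Without the replicate block the interaction was -0.14 for *Cntf* and -0.01 for *Cntfr*, and no call changed. The study states that WT and *Nlrx1*-/- pups shared a day of birth. Whether litters of equal number were prepared together is not given in the sources used here. Pairing WT and *Nlrx1*-/- litters by number (r from -0.08 to 0.17) left 0 family genes called in vehicle and with LPS+IFNγ. A single litter moves several genotype differences across the threshold, and low read numbers limit *Il6* and *Il11*.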
